A study of Mus musculus with 12 samples.

Results

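The miR-15/16 family was followed through microRNA counts of extracellular vesicles, the membrane-bound particles that cells shed, from mouse plasma. Its 9 members were taken by name: both arms of miR-15a and miR-15b, miR-16-5p, the 3p arms of both miR-16 hairpins, and the 5p arms of the relatives miR-195a and miR-497a. All 9 stand among the 1915 mouse names of the table. The BDL libraries came from male C57BL/6J mice 8 days after bile duct ligation (BDL), in which the common bile duct is tied off so that bile backs up into the liver, and the sham libraries from sham-operated males of the same strain at the same time. There were 6 libraries per group, the series text gives 6 animals per group, and the age of the mice is not given. One label names liver as the tissue, while another and the protocol name vesicles precipitated from plasma with ExoQuick, a polymer reagent that also brings down other plasma particles.

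MicroRNAs of this family repress messenger RNAs that pair with their seed, the bases 2 to 8 from the 5′ end. They are known for holding back the cell cycle and cell survival, with Bcl2 and cyclins D1 and E1 as well-studied targets. The miR-15a and miR-16-1 genes lie in a region often lost in human chronic lymphocytic leukaemia. miR-16-5p is abundant in red cells and platelets and is often used as a reference in plasma measurements, although lysed red cells add to it.

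The mature sequences are shown because they set which members share targets and which counts could be confused. They come from RefSeq on GRCm38.p6, which held all 9 members under the prefix mmu for mouse, left off elsewhere, and the capitals mark each sequence's own seed. The sources used here do not name the build behind the deposited counts. The 5p members all have 1 seed:
mmu-miR-16-5p: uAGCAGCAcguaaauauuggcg
mmu-miR-15a-5p: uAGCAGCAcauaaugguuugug
mmu-miR-15b-5p: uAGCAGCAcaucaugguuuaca
mmu-miR-195a-5p: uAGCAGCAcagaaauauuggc
mmu-miR-497a-5p: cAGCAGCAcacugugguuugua

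miR-16-5p, miR-15a-5p, miR-15b-5p and miR-195a-5p begin with the same 9 bases. Over its whole length, miR-195a-5p equals miR-16-5p at 19 positions, miR-15a-5p at 16, miR-15b-5p at 14 and miR-497a-5p at 11, with no gaps allowed. How reads that fit several names were counted is not stated. Outside the family, miR-486a-5p and miR-486b-5p gave identical fitted values, so reads that fit both appear to be counted under each. The members differ in sequence, so for reads cut short or misread the handling stays unknown, and their values are uncertain to that extent. The 3p members come from the opposite side of the hairpins and have 4 different seeds:
mmu-miR-15a-3p: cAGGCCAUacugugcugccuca
mmu-miR-15b-3p: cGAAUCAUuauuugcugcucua
mmu-miR-16-1-3p: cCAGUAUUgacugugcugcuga
mmu-miR-16-2-3p: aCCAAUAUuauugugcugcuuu

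Each of these 3p arms holds UGCUGC, the complement of bases 3 to 8 of the 5p arm, searched on the mature strand only. The same 6 letters are in 14 of 1679 mature mouse names of the RefSeq table (0.834%). On GRCm38.p6, miR-15a-5p (chr14:61632075-61632096, minus strand) and a copy of miR-16-5p from Mir16-1 (chr14:61631936-61631957) start 139 bases apart in an intron of the non-coding gene Dleu2. The Mir16-1 hairpin (chr14:61631880-61631972) also overlaps an annotated Dleu2 exon in part, outside both of its mature arms. miR-15b-5p (chr3:69009775-69009796, plus strand) and the other copy of miR-16-5p, from Mir16-2 (chr3:69009918-69009939), start 143 bases apart in an intron of Smc4, a condensin subunit gene. miR-497a-5p (chr11:70234730-70234751) and miR-195a-5p (chr11:70235062-70235082) start 332 bases apart on the plus strand. Neither lies inside a GENCODE M21 gene, with microRNA genes left out of that search. Both miR-16 hairpins give the same 5p sequence, so miR-16-5p counts cannot be divided between chromosomes 3 and 14.

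Library totals ran from 121003 to 3506914 counts in BDL and from 659302 to 2684636 in sham. BDL 2, 4 and 6 were shallow, with at most 666310 counts, near the 659302 of sham 6. Their sample codes end in 26, a suffix of unstated meaning shared by 3 libraries of each group, against 24 in the rest. Levels are in CPM, counts scaled to a library size of 1e6 after edgeR's trimmed-mean (TMM) correction. The limit set by 3 counts, used where a count was 0, ran from 0.624 CPM in the deepest library to 23.98 CPM in BDL 4. Of 341 names tested with edgeR's quasi-likelihood test, 84 (24.6%) were higher and 62 (18.2%) lower in BDL at a Benjamini-Hochberg adjusted p under 0.05. Hepatocyte miR-122-5p and miR-192-5p, both in every library, were among the higher names. The third listed hepatocyte name, miR-122-3p, was too scarce to test. It had 0 counts in all sham libraries and 11 in BDL, in 3 of 6 libraries, with 9 of them in BDL 1.

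Of the 9 members, 4 passed the filter on low counts. Of these 4, 3 were lower in BDL, 0 were higher and 1 did not pass the threshold, against the 18.2% of all tested names that were lower. The median log2 fold change (BDL minus sham) of the 4 was -1.36, against 0.03 over all 341 names. In suffix 24 alone 6 members passed it and 4 were lower, where 12.9% of all names were lower and 18.4% higher; in suffix 26 it was 2 and 1, where 18.1% were lower and 20.4% higher. A member can pass this filter through the group where it is high, so the count describes the 4 and not the family. Summed over all 9 members, BDL libraries had 45.9 to 120 CPM (median 101.5) and sham libraries 122 to 468 CPM (median 347). These levels cannot tell fewer vesicles from a given source apart from less microRNA per vesicle.

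**Figure D1:**
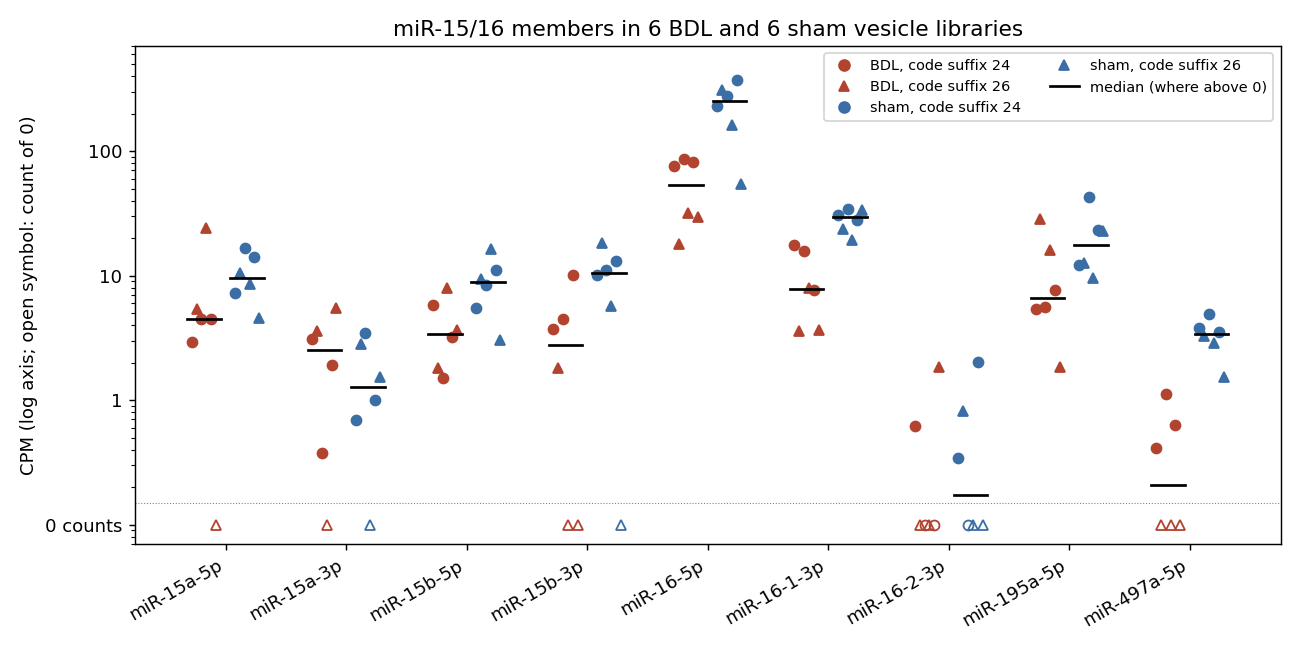
Level of each member in CPM (log axis) in 6 BDL (red) and 6 sham (blue) libraries, with circles for code suffix 24, triangles for suffix 26, open symbols for a count of 0 and black lines for medians above 0. miR-16-5p stands above the other members in sham, and miR-16-1-3p separates the groups, with every BDL library at or below 17.7 CPM and every sham library at or above 19.2 CPM.

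miR-16-5p, the guide strand that both hairpins produce, was the most abundant member by mean CPM in both groups. BDL 2 was an exception, with 10 counts of miR-16-5p and 16 of miR-195a-5p. Over the libraries, miR-16-5p had 18.0 CPM in the lowest, a median of 53.6 and 86.4 in the highest BDL library, and 54.9, 253 and 371 CPM in sham. The groups overlapped because sham 6, at 54.9 CPM, lay below BDL 1, 3 and 5. Its mean was 53.8 ± 30.5 CPM (SD, n = 6) in BDL and 235 ± 113 CPM (SD, n = 6) in sham, with a log2 fold change of -2.06 ± 0.46 (SE; edgeR adjusted p = 0.00189), or 0.24 of the sham level. Raw counts behind these values were 4 to 362 per BDL library and 36 to 767 per sham library, so the shallow BDL libraries gave only 10, 4 and 16 counts.

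Within each code suffix the groups did not overlap. With 3 libraries against 3, full separation has a two-sided exact permutation p of 0.1 at best. The share of all names that separate within a suffix was not counted. In suffix 24 miR-16-5p had 75.3, 86.4 and 81.6 CPM in BDL and 231, 275 and 371 CPM in sham. In suffix 26 it had 18.0, 32.0 and 29.4 CPM in BDL and 312, 163 and 54.9 CPM in sham. The log2 fold change was -1.82 ± 0.29 in suffix 24 (edgeR adjusted p = 0.00121) and, in suffix 26, -2.86 ± 0.66 (adjusted p = 0.00356). The difference between suffixes was -0.97 ± 0.70 (adjusted p = 0.449), in a test that called 2.35% of all names. Without the shallow BDL libraries, an alternative chosen after the data were seen, the log2 fold change was -1.51 (adjusted p = 0.0123).

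By mean CPM, miR-16-5p ranked 169 among the 1563 names with a count in BDL and 85 among the 1558 in sham. As a share of all mouse counts it was 0.00593 ± 0.00397% (SD, n = 6) in BDL and 0.0235 ± 0.0123% (SD, n = 6) in sham (two-sided exact permutation p = 0.0152, adjusted 0.0303 over the 4 members with a count in every library). The adjusted p of this share was 0.0606 without BDL 2 and 0.0563 without BDL 6. The smallest p that the 924 splits allow is 0.00216. The totals behind these shares hold miR-486a-5p, at 16.7% to 35.8% of counts in BDL and 36.2% to 40.1% in sham. Going the other way, the totals hold miR-122-5p at 5.77% to 32.7% in BDL and 0.29% to 2.28% in sham. They also hold miR-486b-5p, which gave identical fitted values, so the same reads may enter under each name and distort the shares. Scaled to totals without the 3 most abundant names, miR-16-5p had a log2 fold change of -2.17 (edgeR adjusted p = 0.0016).

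miR-16-1-3p, the opposite arm of the chromosome 14 hairpin (chr14:61631894-61631915), also fell. It had 3.59 CPM in the lowest, a median of 7.82 and 17.7 in the highest BDL library, and 19.2, 29.5 and 34.2 CPM in sham. Every BDL library lay below every sham library, as was the case for 9.38% of all tested names. The mean was 9.39 ± 6.0 CPM (SD, n = 6) in BDL and 28.2 ± 5.88 CPM (SD, n = 6) in sham, with a log2 fold change of -1.40 ± 0.39 (edgeR adjusted p = 0.00878). In suffix 24 the change was -1.12 ± 0.39 (adjusted p = 0.0485). In suffix 26 too few counts were left for it to pass the filter, with 2, 1 and 2 in BDL and 58, 20 and 22 in sham. By share of counts it was 0.00107 ± 0.000867% (SD, n = 6) in BDL and 0.00282 ± 0.000795% (SD, n = 6) in sham (two-sided exact permutation p = 0.00866, adjusted 0.0303), with adjusted p of 0.0606 without BDL 2 and 0.0563 without BDL 6.

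miR-16-2-3p, the 3p arm from chromosome 3 (chr3:69009960-69009981), was scarcely found. Its counts were 0 to 3 in BDL libraries and 0 to 4 in sham libraries, with at least 1 count in 2 of 6 BDL and 3 of 6 sham libraries. Pooled over libraries, miR-16-1-3p made up 144 of 148 counts (97.3%) of the miR-16 3p arms in BDL and 294 of 301 (97.7%) in sham. This says nothing of the 5p arm, which the hairpins share.

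miR-15b-5p, the partner of miR-16-2 in Smc4, had 1.497 CPM in the lowest, a median of 3.43 and 7.99 in the highest BDL library, and 3.05, 8.86 and 16.3 CPM in sham. The groups overlapped. Its mean was 4.0 ± 2.5 CPM (SD, n = 6) in BDL and 8.95 ± 4.6 CPM (SD, n = 6) in sham, with a log2 fold change of -1.31 ± 0.48 (edgeR adjusted p = 0.0341). The counts were low, at 1 to 28 per BDL library and 2 to 23 per sham library. The call ended with total counts as the only scaling (adjusted p = 0.0903), with limma-voom (0.094), with no count filter (0.177), in suffix 24 (0.183) and without the shallow BDL libraries (0.0774). It also ended when BDL 2, 3, 5 or 6 or sham 2, 4 or 5 was left out, with adjusted p of 0.0622, 0.0855, 0.0589, 0.0614, 0.0585, 0.0704 and 0.0566 in that order. By share of counts it was 0.000428 ± 0.000304% (SD, n = 6) in BDL and 0.000844 ± 0.00034% (SD, n = 6) in sham (two-sided exact permutation p = 0.0584, adjusted 0.0779), and the adjusted p was 0.0462 without BDL 1, 0.0433 without BDL 4 and 0.026 without sham 6.

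miR-15a-5p, the partner of miR-16-1 in Dleu2, did not pass the filter over all 12 libraries. It had 0 CPM in the lowest, a median of 4.48 and 23.98 in the highest BDL library, and 4.57, 9.61 and 16.7 CPM in sham. The highest BDL value is BDL 4, where it rests on 3 counts, and the lowest is BDL 6, with a count of 0 that allows up to 5.51 CPM. In suffix 24, where it could be tested, BDL 1, 3 and 5 had 2.91, 4.49 and 4.46 CPM and sham 1, 3 and 5 had 7.27, 16.7 and 14.1 CPM, a log2 fold change of -1.65 ± 0.54 (edgeR adjusted p = 0.0359). With no filter over all 12 libraries the log2 fold change was -1.26 ± 0.60 (adjusted p = 0.186).

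The 3p arms of miR-15a and miR-15b were at the edge of detection. miR-15b-3p had 0 to 10.2 CPM in BDL (median 2.77) and 0 to 18.3 CPM in sham (median 10.6), and with no filter its log2 fold change was -1.28 ± 0.58 (edgeR adjusted p = 0.161). miR-15a-3p had 0 to 5.51 CPM in BDL (median 2.52) and 0 to 3.48 CPM in sham (median 1.27), with 0.53 ± 0.82 (adjusted p = 0.743). It was the only member with a fold change above 0 in that fit. For miR-16-2-3p the fit gave -0.62 ± 1.18 (adjusted p = 0.792).

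miR-195a-5p, which differs from miR-16-5p outside the seed and comes from the chromosome 11 pair, had 1.84 CPM in the lowest, a median of 6.63 and 28.8 in the highest BDL library, and 9.60, 17.7 and 42.5 CPM in sham. Its mean was 10.9 ± 9.95 CPM (SD, n = 6) in BDL and 20.5 ± 12.2 CPM (SD, n = 6) in sham, with a log2 fold change of -1.12 ± 0.55 that did not pass the threshold (edgeR adjusted p = 0.112). BDL 2 decided this value: with 16 counts it stood at 28.8 CPM, and without it the log2 fold change was -1.81 (adjusted p = 0.0105). The suffixes gave unlike values, -2.02 ± 0.51 in suffix 24 (adjusted p = 0.0114) and -0.012 ± 0.77 (adjusted p = 0.99) in suffix 26, yet the difference between them, 2.14 ± 0.95, had an adjusted p of 0.218. By DESeq2 the change was -1.25 (adjusted p = 0.044), without the shallow BDL libraries it was -1.68 (adjusted p = 0.0149), and with libraries summed by the leading digit of their codes it was -1.63 (adjusted p = 0.00802).

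miR-497a-5p, the scarcest 5p member, had 0 to 3 counts per BDL library (6 in all) and 1 to 11 per sham library (37 in all). In CPM the BDL libraries had 0 to 1.12 and the sham libraries 1.52 to 4.88. These values did not overlap, as for 9.38% of tested names with BDL below, though this member did not pass the filter. The separation is not established at the depth of the shallow BDL libraries. In BDL 2, 4 and 6 the count was 0, which allows up to 5.39, 23.98 and 5.51 CPM, so a difference from sham was not detectable in those 3 libraries at their depth. With no filter the log2 fold change was -2.42 ± 0.89 (edgeR adjusted p = 0.0707).

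**Figure D2:**
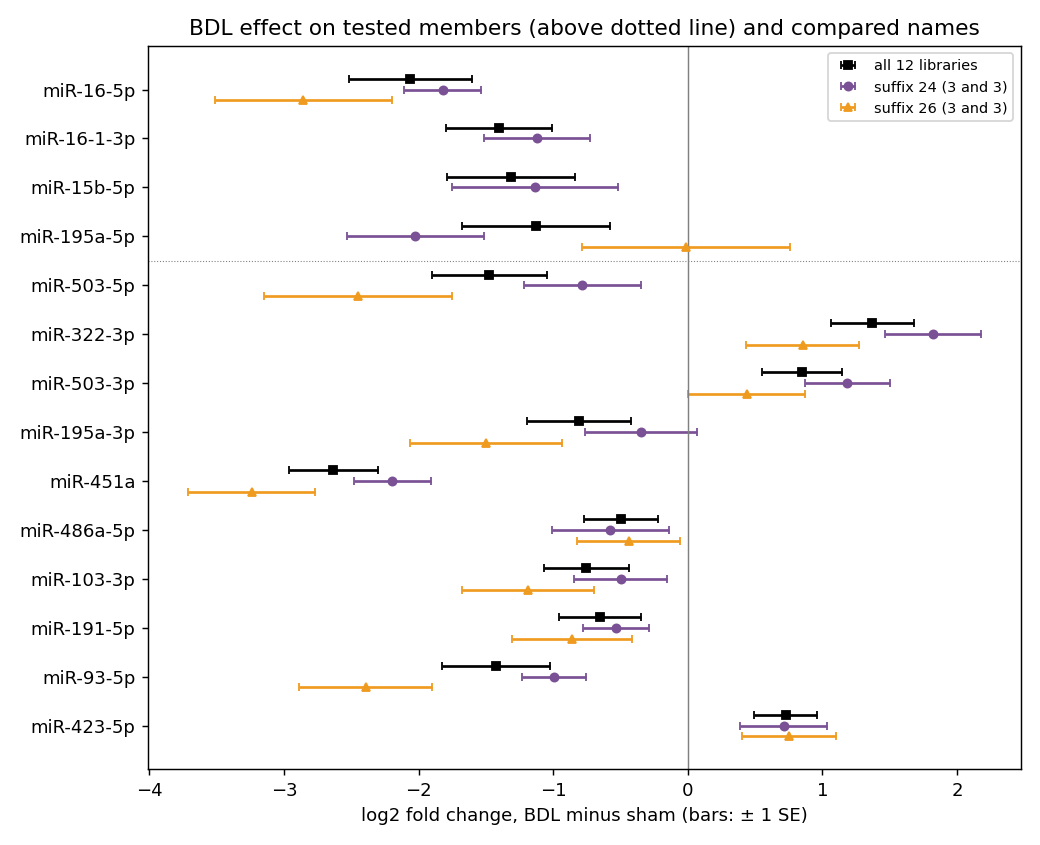
Log2 fold change (BDL minus sham, ± 1 SE) of the 4 tested members above the dotted line and of compared names under it, from all 12 libraries (squares) and from suffix 24 (circles) and suffix 26 (triangles), with a symbol left out where the name did not pass the filter. The 4 members lie below 0 in all 12 libraries, and miR-195a-5p is at -2.02 in suffix 24 and -0.012 in suffix 26.

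Ordered by mean CPM in sham, miR-16-5p (235 CPM) stood clear of the rest, since its lowest sham library, at 54.9 CPM, exceeded every sham value of the other members. miR-16-1-3p and miR-195a-5p followed with overlapping values, then miR-15a-5p (10.3 ± 4.49), miR-15b-3p (9.73 ± 6.28) and miR-15b-5p (8.95 ± 4.6 CPM; SD, n = 6), which did not differ beyond their spread. miR-497a-5p (3.31 ± 1.11), miR-15a-3p (1.59 ± 1.33) and miR-16-2-3p (0.529 ± 0.795 CPM) came last, each overlapping its neighbour. The mature members are 21 or 22 bases long, so their CPM were compared without length scaling. Of the counts of the 5 members that share the seed, miR-16-5p made up 751 of 909 (82.6%) in BDL and 2772 of 3210 (86.4%) in sham, pooled over libraries. By library that share ran from 33.3% to 87.2% in BDL and from 63.2% to 89.7% in sham.

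Both arms of a hairpin are cut from 1 precursor, and one is usually kept as the guide. Pooled over libraries, the 5p arm made up 83.5% of 899 miR-16 counts in BDL and 90.2% of 3073 in sham, and by library 80.0% to 91.4% in BDL and 62.1% to 92.7% in sham. For miR-15a it made up 61.9% of 63 counts in BDL and 86.7% of 128 in sham, with library medians of 65.0% in BDL (0 to 100%) and 87.0% in sham (75.0% to 100%). The mean log2 ratio of miR-15a-5p to miR-15a-3p differed by -1.92 ± 0.99 (SE, exact permutation p = 0.0714, adjusted 0.119), and the groups overlapped. For miR-15b the 5p arm had 46.6% of 88 counts in BDL and 43.0% of 214 in sham, with library medians of 55.4% in BDL (23.8% to 100%) and 44.3% in sham (33.8% to 100%). The 3p arm of miR-195a, which is no member, was the more abundant: the 5p arm had 19.1% of 377 counts in BDL and 32.9% of 602 in sham. Its library medians were 27.1% in BDL (9.09% to 100%) and 27.0% in sham (20.8% to 61.6%), nearly equal, unlike the pooled shares. Pooled shares weigh deep libraries most, and BDL 1 is the deepest of all. Without BDL 1 the pooled BDL share was 30.7% of 150 counts for miR-195a and 31.0% of 42 for miR-15b.

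**Figure D3:**
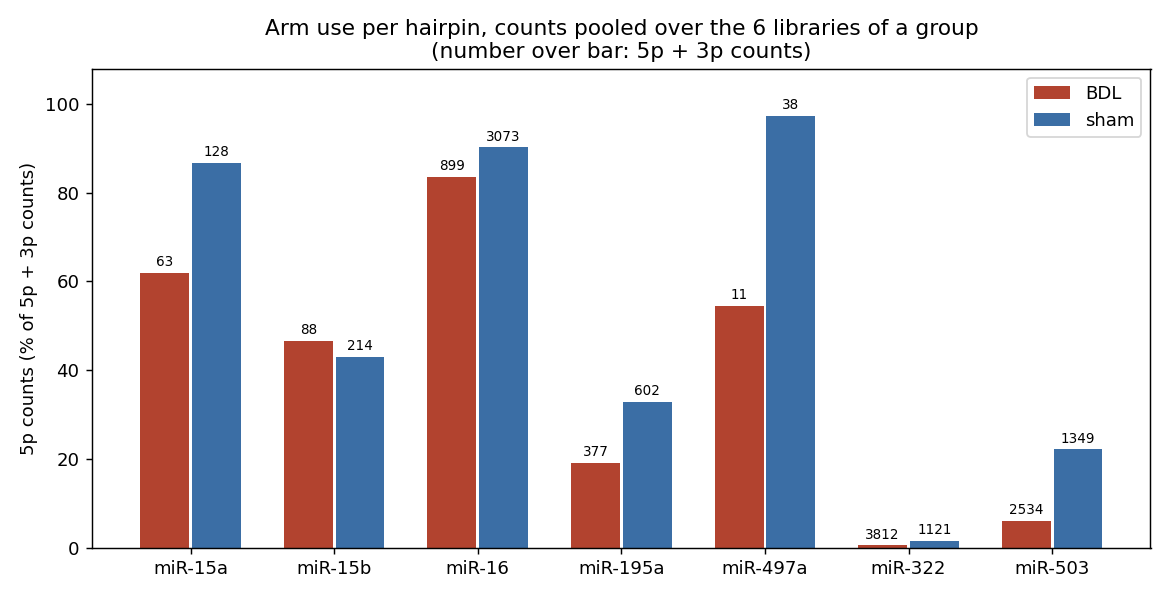
Share of the 5p arm among the 5p and 3p counts of each hairpin (percent, axis from 0), pooled over the 6 BDL (red) and the 6 sham (blue) libraries, with the number of counts over each bar. miR-16 was mostly 5p (83.5% in BDL, 90.2% in sham), miR-15b had 46.6% in BDL and 43.0% in sham, and miR-322 almost wholly 3p.

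Beyond the 5 members, the RefSeq table holds 5 mouse names with the same seed, and all were too scarce to pass the filter. Summed, miR-195b, miR-322-5p, miR-6342, miR-6353 and miR-6419 reached 0 to 6.38 CPM in BDL libraries (median 2.41) and 0 to 4.88 CPM in sham libraries (median 1.72). miR-6353 and miR-6419 had no count in BDL, and miR-195b and miR-6353 had none in sham. The X-linked pair miR-322 and miR-503 is related to this family, and miR-503-5p shares 7 leading bases with miR-16-5p. Its log2 fold change was -1.47 ± 0.43 (edgeR adjusted p = 0.011), while the 3p arms miR-322-3p and miR-503-3p had 1.37 ± 0.31 (adjusted p = 0.00196) and 0.85 ± 0.30 (adjusted p = 0.0284). The call of miR-503-5p ended in suffix 24 (adjusted p = 0.192), and those of miR-322-3p and miR-503-3p in suffix 26 (0.119 and 0.439).

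Within-library ratios do not depend on scaling between libraries, and they asked whether cluster partners moved together. The mean log2 ratio of miR-16-5p to miR-15a-5p was 3.32 ± 1.89 in BDL and 4.34 ± 0.60 in sham, a difference of -1.02 ± 0.81 (SE; n = 6 each; two-sided exact permutation p = 0.305). That of miR-16-5p to miR-15b-5p was 3.50 ± 1.46 in BDL and 4.59 ± 0.82 in sham, a difference of -1.09 ± 0.68 (exact permutation p = 0.139). Between miR-15a-5p and miR-15b-5p the difference was -0.067 ± 0.67 (exact permutation p = 0.918). By suffix, 24 then 26, miR-16-5p to miR-15a-5p differed by -0.24 and -1.80, and miR-16-5p to miR-15b-5p by -0.49 and -1.69. For miR-15a-5p to miR-15b-5p the values were -0.25 and 0.12. The BDL libraries of suffix 26 are the shallow ones. The errors are wide, and these p-values do not show that the partners moved alike. Of 10 ratios tested, 3 had an unadjusted p under 0.05 and 0 an adjusted p under 0.05.

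miR-16-5p was also set against names used, like it, as plasma references. The mean log2 ratio to miR-103-3p was 0.0067 ± 0.71 in BDL and 1.37 ± 0.67 in sham, a difference of -1.36 ± 0.40 (n = 6 each; exact permutation p = 0.0108, adjusted 0.0541). To miR-191-5p the difference was -1.35 ± 0.49 (exact permutation p = 0.0195, adjusted 0.0649) and to miR-423-5p it was -2.84 ± 0.64 (p = 0.00649, adjusted 0.0541). To miR-93-5p it was -0.49 ± 0.26 (exact permutation p = 0.0931, adjusted 0.133). Within suffixes 24 and 26 the differences were -1.29 and -1.44 to miR-103-3p, -1.26 and -1.45 to miR-191-5p, and -2.52 and -3.17 to miR-423-5p. Leaving out a library moved some of these over the threshold: without sham 6 the adjusted exact permutation p was 0.0216 for each of these 3 ratios, without BDL 4 it was 0.0487, 0.0433 and 0.0433 in the same order (and 0.0487 for miR-93-5p), and without BDL 5 it was 0.0325 for miR-103-3p and miR-423-5p. Without the 3 shallow BDL libraries the differences were -0.84, -0.96 and -1.995 in that order (adjusted p = 0.214, 0.198 and 0.198). The reference names did not share a direction in the fit: miR-93-5p had a log2 fold change of -1.42 ± 0.40 (edgeR adjusted p = 0.00929), miR-423-5p 0.73 ± 0.24 (0.0194), miR-103-3p -0.75 ± 0.31 (0.0624) and miR-191-5p -0.65 ± 0.31 (0.0974).

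**Figure D4:**
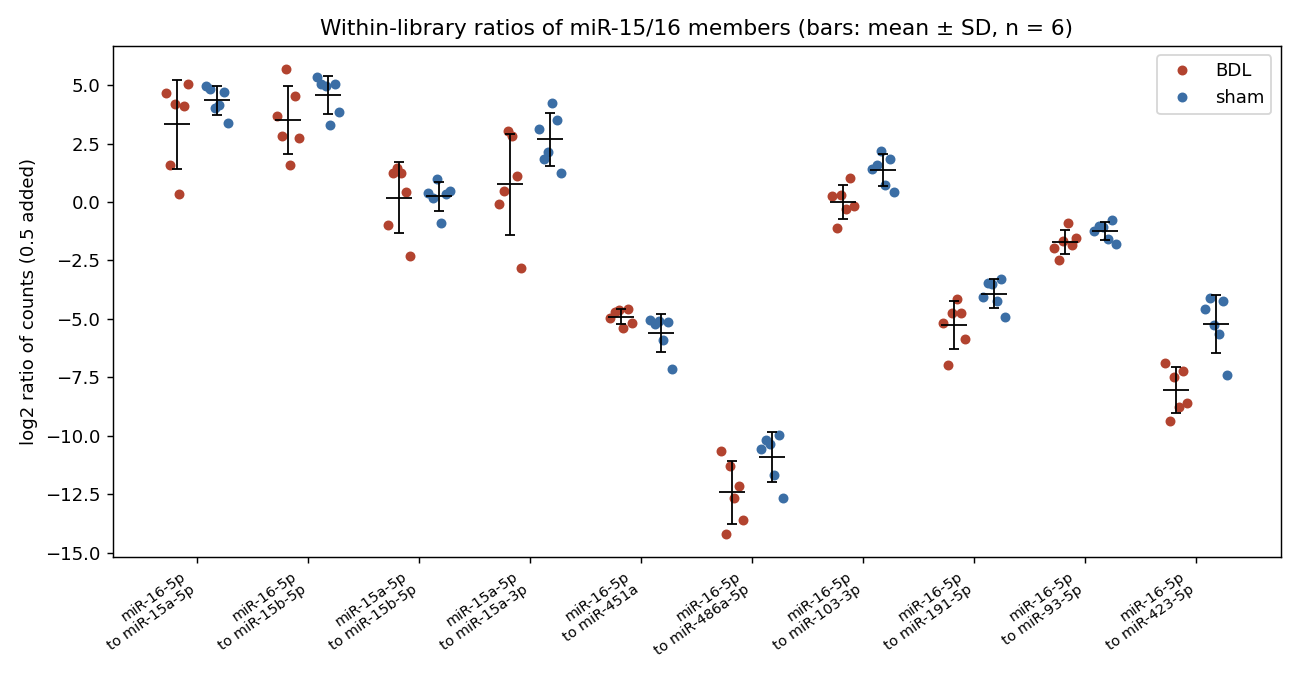
Log2 ratio of counts within each library (0.5 added to each count) for 10 pairs of names in 6 BDL (red) and 6 sham (blue) libraries, with black bars for the mean ± SD. miR-16-5p to miR-423-5p averaged -8.05 in BDL and -5.21 in sham, and miR-16-5p to miR-15a-5p spread widely in BDL.

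Red cell names were among those lower in BDL. Of 5 listed (miR-451a, both arms of miR-144, both arms of miR-486a), 4 were tested, 2 were lower in BDL and 0 higher, and none was at 0 throughout a group. Those lower were miR-451a and miR-486a-3p, while miR-486a-5p (log2 fold change -0.49, edgeR adjusted p = 0.162) and miR-144-3p (-0.60, adjusted p = 0.437) did not pass the threshold. The 5 names summed to 124801 to 378360 CPM in BDL and 358588 to 556055 CPM in sham, groups that overlap. Nearly all of this is miR-486a-5p, ranked 1 by mean CPM in both groups. The unlisted miR-486b-5p gave identical fitted values. Without miR-486a-5p the sums were 1177 to 3633 CPM in BDL and 10468 to 16931 CPM in sham. These do not overlap, but the name left out is the one that made the sums overlap. The rest is mostly miR-451a and miR-486a-3p, already called lower, so it adds nothing on the miR-144 arms. Both also separated the groups alone, as 9.38% of tested names did with BDL below. The mean log2 ratio of miR-16-5p to miR-451a was -4.91 ± 0.33 in BDL and -5.59 ± 0.81 in sham, a difference of 0.68 ± 0.36 (n = 6 each; exact permutation p = 0.0519, adjusted 0.119). To miR-486a-5p the difference was -1.52 ± 0.70 (exact permutation p = 0.0606, adjusted 0.119). Of 5 leukocyte names 3 were lower and 0 higher, where 18.2% of all tested names were lower. Those not past the threshold were miR-223-3p (log2 fold change -0.58, edgeR adjusted p = 0.362) and miR-155-5p (-0.10, adjusted p = 0.873). The leukocyte names summed to 563 to 2214 CPM in BDL and 2805 to 6421 CPM in sham, mostly miR-142a-5p and miR-150-5p, both called lower. Both platelet and endothelial names, the arms of miR-126a, were lower over all 12 libraries, at a summed 631 to 2619 CPM in BDL and 3151 to 8883 CPM in sham. In suffix 24 neither passed the threshold, with log2 fold changes of -0.68 for miR-126a-3p (edgeR adjusted p = 0.0549) and -0.82 for miR-126a-5p (0.0795), while in suffix 26 both did, with -3.28 and -2.17. The difference between suffixes was -2.53 ± 0.45 for miR-126a-3p (adjusted p = 0.00357), which is among the 8 names called in that test, and -1.26 ± 0.67 for miR-126a-5p (adjusted p = 0.279). The part of these cell sources in the lower miR-16-5p was not tested.

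The names whose log2 CPM over the 12 libraries followed miR-16-5p most closely, members aside, were miR-20a-5p (Pearson r = 0.96), miR-142a-5p (0.952), miR-101c (0.951; uncertain as a separate name, since its sequence is close to that of miR-101a-3p), miR-30e-5p (0.95) and miR-93-5p (0.949). These values are descriptive, over libraries that share the group difference and the depth gap. With group means removed they were 0.909, 0.886, 0.879, 0.876 and 0.89. The members themselves followed it less closely, with r of 0.807 for miR-16-1-3p, 0.627 for miR-15b-5p and 0.255 for miR-195a-5p. With group means removed these were 0.485, 0.32 and -0.251, so the sign for miR-195a-5p turned. The red cell names gave unlike values. miR-451a had 0.897, and 0.761 with group means removed, and miR-144-3p had 0.776 and 0.816. miR-486a-3p had 0.82 and 0.448, and miR-486a-5p had 0.243 and -0.335.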

How the data were processed

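Small RNA libraries were made from plasma vesicles with a NEBNext kit, per the labels' protocols, with no molecular identifiers described, so the limits set by 3 counts cover counting error only. SDs, and SEs of ratios, reflect the spread between libraries. SEs of edgeR fold changes were derived from the log2 fold change and the F statistic of its test, whose dispersion borrows from other names. Deposited values are unnormalised whole-number counts by mature microRNA name. The submitters' processing notes name cutadapt and STAR; for versions, build and annotation, nothing is given in the sources used here. Only the 1915 mouse names (not 67 of other species) entered totals and tests. Libraries that share a leading code digit may share a source; p-values measure the spread between libraries, which may be partly technical.

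Counts were tested with edgeR 4.0.16 (R 4.3.3; TMM, its low-count filter, group as the only term), adjusted over all 341 names. The test was checked on simulated counts. log2 CPM used a prior count of 2. Single measures had two-sided exact permutation tests. Alternatives were other scalings, filters, DESeq2 1.42.0, limma-voom (limma 3.58.1), a replicate block, the suffixes, libraries summed by leading digit, and each library left out. Members and lists were chosen with earlier results of these data known. Named were all members, names with their seed, listed marker and reference names, and the 5 names most like miR-16-5p; miR-322-3p, miR-503 and miR-195a-3p were named after their values were seen.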

Additional observations from a re-analysis of the deposited data

How the results depend on the processing

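miR-16-5p kept its direction and its call under all 25 alternatives, with log2 fold changes of -2.36 to -1.92 when 1 library was left out and -2.86 to -1.51 otherwise. miR-16-1-3p kept its direction under all 24 that tested it and lost its call with no count filter (adjusted p = 0.0543). The count of members lower was 3, and it was 1 with no count filter, 1 in suffix 26 (2 members tested), 5 with libraries summed by leading code digit (6 tested), and 2 to 4 with 1 library left out; the count higher was 0 throughout. Names higher numbered 54 in suffix 26, where 265 names were tested, and 65 to 89 with 1 library left out. DESeq2 size factors moved the median of all names by -0.14 and totals without the 3 most abundant names by -0.11 (log2). The ratio of miR-16-5p to miR-15b-5p turned to 0.044 without the shallow BDL libraries; that of miR-15a-5p to miR-15b-5p turned to 0.070 there and ran from -0.33 to 0.43 with 1 library left out. With 2 added to each count, the ratios of miR-16-5p to miR-451a, miR-103-3p and miR-423-5p passed the threshold (adjusted p = 0.0325, 0.0361 and 0.0325). The causes were not tested. With a replicate block, 72 names were higher and 61 lower and miR-16-5p had -2.08; miR-15b-5p was not past the threshold (-1.20, adjusted p = 0.0864). Same-numbered libraries correlated at -0.089 to 0.311, and 2 of 6 BDL libraries correlated best with their own number, so the numbers were not taken as pairs. Sign flips over 6 pairs gave an adjusted p of 0.0625 for the shares of miR-16-5p and miR-16-1-3p. The smallest unadjusted sign-flip p that 6 pairs allow is 0.03125, which leaves this test little room to pass the threshold after adjustment. Depth limits the members other than miR-16-5p most, where counts of 3 or fewer are common in BDL 2, 4 and 6.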
